A study of Homo sapiens with 6 samples.

Results

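Interleukin-6 (IL6) is a growth and survival factor of malignant plasma cells. It binds the receptor chain encoded by IL6R, and the pair then engages the shared signalling chain gp130, encoded by IL6ST. The kinases JAK1 and JAK2, bound to gp130, phosphorylate the transcription factor STAT3, which enters the nucleus and induces SOCS3, an inhibitor that acts back on the receptor and the kinases. PIM2, a serine-threonine kinase that sustains translation and survival in myeloma cells, belongs to a family induced through this pathway. U266 is known as a line that makes its own IL6.

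The genes described here are 8 genes of this pathway, IL6, IL6R, IL6ST, JAK1, JAK2, STAT3, SOCS3 and PIM2, picked by name for their role in it. They were picked with earlier results of these data known. The array annotation used here named 6 of the 8, out of 14884 named genes in all. IL6 and IL6ST were not among its named probe sets and were not analysed here, so no level of the ligand or of gp130 is given. All 6 named genes passed the filter on low values, which kept the 7442 genes whose mean reached the median over named genes, 4.70 log2 units. JAK2 passed narrowly, with a mean of 4.84, and PIM2 had a mean of 11.03, at the 99.9th percentile of named genes.

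The 6 genes were measured in RPMI8226, KMS11 and U266, established human multiple myeloma lines, each a single line grown in RPMI1640 medium with serum. Every line gave 1 array of cells transfected with miR-10a mimic and 1 of cells given a scrambled oligonucleotide instead, both at 100 nM with HiPerFect and both collected 48 h later. All 6 arrays therefore come from transfected cells, and the labels describe no untransfected array and no array after added IL6. Values are log2 expression, where a difference of 1 is a doubling on the scale of the array, and a pair of values for a line gives its control array before its mimic array.

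The mimic stands for the mature microRNA of MIR10A, a gene within the HOXB cluster, and the arm supplied is not stated in the labels. Both mature strands are shown because they are the agent that separates the arrays of a line. They are RefSeq sequences (GRCh38.p14, minus strand, chr17:48579904-48579926 for the 5p strand and chr17:48579864-48579885 for the 3p strand), with the seed, bases 2 to 8, in capitals.
hsa-miR-10a-5p: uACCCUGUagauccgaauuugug
hsa-miR-10a-3p: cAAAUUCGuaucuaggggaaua

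Plasma cell identity was checked first, with mixed results over the 8 named markers, which averaged 6.36 to 7.37 in the control arrays and 6.39 to 7.403 with mimic. IRF4, a plasma cell transcription factor, stood between 10.26 and 10.89 log2 units on the 6 arrays, and XBP1, a factor of the secretory programme, between 9.34 and 9.65. SDC1, the syndecan-1 surface marker, ran from 5.52 on the KMS11 control array to 9.49 in U266, and CD38 stood at 9.99 and 9.90 in RPMI8226 against 4.92 or less on the other 4 arrays. MZB1, a chaperone of antibody-secreting cells, ran from 10.03 in RPMI8226 to 6.11 in U266, and SLAMF7, a surface receptor of myeloma cells, stood at 7.73 and 7.23 in U266 but between 3.27 and 3.79 on the other 4 arrays. POU2AF1, a B-lineage coactivator, stayed between 4.93 and 5.14, and CD27, between 3.43 and 3.53, was below the filter. The 2 named stromal markers, DCN and LUM, averaged 2.05 to 2.29 in the control arrays and 2.21 to 2.25 with mimic. The 6 named T cell and myeloid markers averaged 3.58 to 3.67 and 3.48 to 3.73, with 5 of the 6 below the filter. CD8A, the one above it, ran from 4.39 to 5.59, highest on the RPMI8226 mimic array. The 4 named B cell markers averaged 4.22 to 4.69 in the control arrays and 4.22 to 4.65 with mimic. Among them BLK, a B cell kinase, stood at 6.61 and 6.32 in RPMI8226 against 4.49 to 4.96 on the other 4 arrays. The part of these markers in the results was not tested. In extracts of whole cultures, fewer cells with a transcript and less transcript per cell cannot be told apart.

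The lines were then compared, to learn how the pathway is set in each. IL6R and SOCS3 were highest in U266, JAK1 and PIM2 in RPMI8226, and JAK2 and STAT3 in KMS11, where STAT3 overlapped with its levels in U266. All 6 genes differed among the lines (limma F test beside the treatment effect, adjusted p from 1.91e-05 for IL6R to 0.000352 for PIM2). Most genes did: 82.4% of the 7442 tested genes were called in this test, so the count of members is near the background. That count includes JAK2, which passed the filter only through its levels in KMS11 and U266. The median width of the difference, the highest minus the lowest line mean, was 1.70 log2 units over the 6 genes and 0.77 over all tested genes. Each line is represented by 2 arrays of different treatment, and the labels name no separate cultures, so these p-values rest on the spread between such arrays, which may be technical.

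IL6R, the receptor chain that gives a cell its response to IL6, differed most. It stood at 10.21 and 10.29 log2 units on the control and mimic arrays of U266, and at 7.94 and 8.02 in RPMI8226. KMS11 gave the lowest levels, 6.43 and 5.88. No array of a line overlapped with one of another line, and every step was wider than the widest gap within a line, 0.55 log2 units in KMS11. U266 exceeded KMS11 by 4.10 ± 0.17 (log2 difference ± SE), or 17.1-fold, with a 95% interval from 3.68 to 4.51 (limma, adjusted p = 1.49e-05). It exceeded RPMI8226 by 2.27 ± 0.17, or 4.83-fold (adjusted p = 9.23e-05), and KMS11 minus RPMI8226 was -1.83 ± 0.17 (adjusted p = 0.00024). Of all tested genes, 2.06% had a difference among lines at least as wide.

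**Figure D1:**
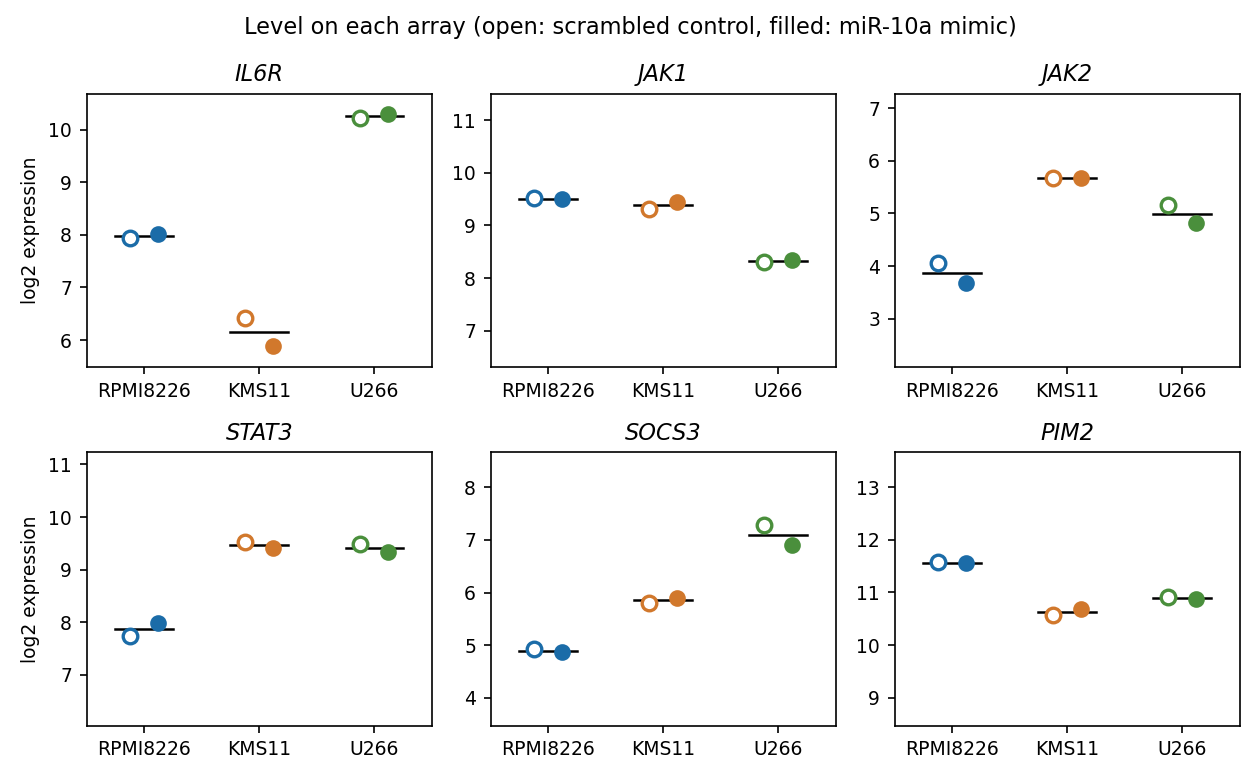
Log2 expression (vertical axes, all spanning the same width) of the 6 named genes in RPMI8226, KMS11 and U266, with 1 open point for the scrambled control array, 1 filled point for the miR-10a mimic array and a bar at the mean of both. IL6R separates the lines most, from 5.88 and 6.43 in KMS11 to 10.21 and 10.29 in U266, while the points of JAK1 in RPMI8226 and KMS11 and of STAT3 in KMS11 and U266 lie close together.

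Of the kinases of the receptor complex, JAK1 was lowest in U266, the line in which IL6R was highest. JAK1, which gp130 signalling depends on most, gave 9.52 and 9.50 in RPMI8226 and 9.31 and 9.45 in KMS11, while U266 gave 8.30 and 8.34. Both U266 arrays lay below all 4 others. The log2 difference of U266 was -1.19 ± 0.08 from RPMI8226 (limma, adjusted p = 7.98e-05) and -1.06 ± 0.08 from KMS11 (adjusted p = 0.000156). KMS11 and RPMI8226 were not called different in JAK1, with a difference of -0.13 and a 95% interval from -0.34 to 0.08 (adjusted p = 0.236).

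JAK2, the other kinase, had a mean close to the filter, and the table gives no detection calls. The KMS11 arrays gave 5.67 and 5.68 and the U266 arrays 5.16 and 4.81, while RPMI8226 gave 4.06 and 3.68. Both RPMI8226 arrays were below the filter's 4.70, and whether they stood above the background of the array is unknown. JAK2 passed the filter only through its levels in KMS11 and U266, so its differences are given as a description with no test. KMS11 was above RPMI8226 by 1.81 log2 units, U266 was above RPMI8226 by 1.12, and U266 minus KMS11 was -0.69.

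STAT3, the transcription factor that carries the signal to the nucleus, was lower in RPMI8226 than in the other two lines. Its levels were 7.75 and 7.995 in RPMI8226, 9.52 and 9.40 in KMS11, and 9.49 and 9.34 in U266. KMS11 exceeded RPMI8226 by 1.59 ± 0.12, or 3.01-fold, and U266 exceeded it by 1.54 ± 0.12, or 2.91-fold (limma, adjusted p = 0.000113 and 0.000111). The arrays of KMS11 and U266 overlapped, and their difference was -0.05 with a 95% interval from -0.35 to 0.25 (adjusted p = 0.739).

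SOCS3, the feedback inhibitor, was lowest in RPMI8226, higher in KMS11 and highest in U266. The RPMI8226 arrays gave 4.93 and 4.86 and the KMS11 arrays 5.81 and 5.91, while U266 gave 7.28 and 6.90, with no overlap between lines. U266 exceeded RPMI8226 by 2.19 ± 0.13, or 4.56-fold (limma, adjusted p = 3.72e-05), and KMS11 by 1.23 ± 0.13, or 2.35-fold (adjusted p = 0.000405). KMS11 exceeded RPMI8226 by 0.96 ± 0.13 (adjusted p = 0.00102). A weaker SOCS3 probe set, with a mean of 3.45, gave the same order, at 2.88 and 2.48 in RPMI8226, 3.36 and 3.03 in KMS11, and 4.59 and 4.39 in U266. Its levels in RPMI8226 and KMS11 lay below the array medians (3.61 to 3.66) and are not known to stand above background, so its differences are given as a description with no test.

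PIM2, the survival kinase, varied least. Its levels were 11.57 and 11.56 in RPMI8226, 10.92 and 10.87 in U266, and 10.56 and 10.69 in KMS11, with no overlap between lines. The log2 difference from RPMI8226 was -0.94 ± 0.09 in KMS11 (limma, adjusted p = 0.000247) and -0.67 ± 0.09 in U266 (adjusted p = 0.000899). The step from KMS11 to U266, 0.26 ± 0.09 with a 95% interval from 0.05 to 0.48, was called (adjusted p = 0.039) but only in part of the settings. It was not called without the filter (0.0993), after centring on array medians (0.0605), after quantile normalization (0.0789), or without any single one of the 6 arrays (0.0562 to 0.266).

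By pairs of lines, all 6 genes differed between U266 and RPMI8226, where 67.4% of tested genes were called, with 4 higher and 2 lower in U266. Between U266 and KMS11, 5 of 6 differed against a background of 63.8%, 3 higher and 2 lower in U266. Between KMS11 and RPMI8226, 5 of 6 differed against a background of 65%, 3 higher and 2 lower in KMS11. No line was therefore highest or lowest in the whole set. The counts by pair include JAK2, whose differences are given above as a description only. Arrays of the 3 lines did not overlap in 5 of the 6 genes, and in 61.9% of all tested genes. The order of the 3 lines was the same in the control arrays as in the mimic arrays for 6 of 6 genes, and for 71.6% of all tested genes.

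**Figure D2:**
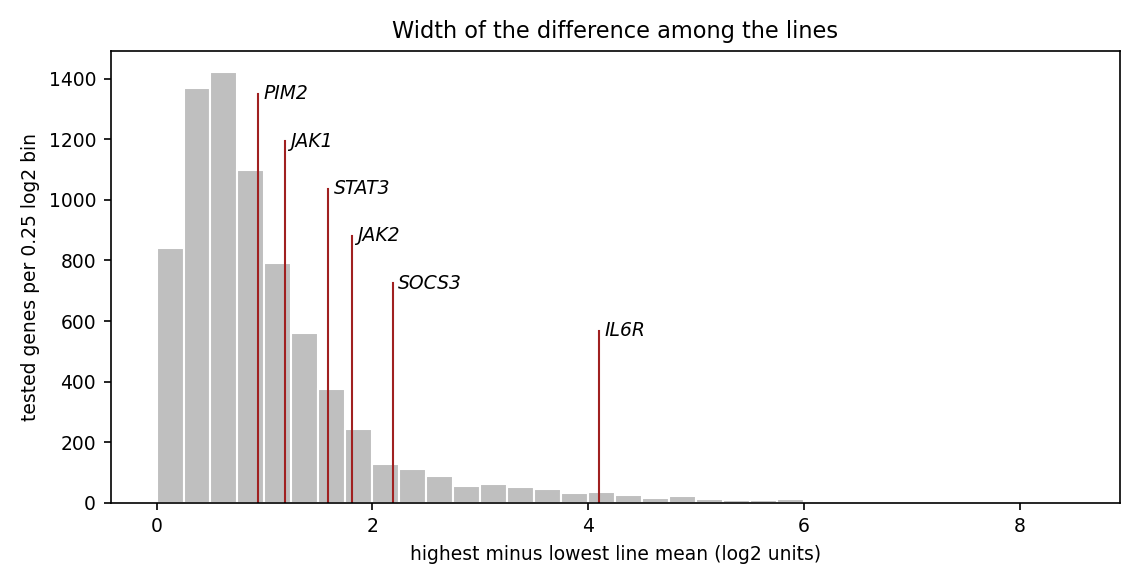
Number of tested genes (vertical axis, bins of 0.25) by the highest minus the lowest line mean in log2 units (horizontal axis), with a red line at each of the 6 genes, whose heights carry no value. IL6R, at 4.10, lies in the thin right tail, SOCS3, at 2.19, is exceeded or matched by 8.56% of genes, and PIM2, at 0.94, by 39.7%.

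Genes with the most similar pattern were sought among all other tested genes, for the 5 of the 6 genes whose line means spanned at least 1 log2 unit. Likeness was the root mean square difference between profiles over the 6 arrays, each centred on its own mean, and the 6 points share 3 lines. For IL6R the nearest were BNIP3 (0.169 log2 units), SDC1 (0.25) and DSCR8 (0.299), against a median of 1.73 over all tested genes. SDC1, the syndecan-1 gene, stood at 9.49 and 9.48 in U266, 7.30 and 7.16 in RPMI8226, and 5.52 and 5.72 in KMS11. For SOCS3 the nearest were RTP4 (0.0887), GNPDA2 (0.095) and UBR1 (0.133), with a median of 0.952. RTP4, an interferon-induced gene, stood at 6.95 and 6.74 in U266 and at 4.64 and 4.48 in RPMI8226.

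STAT3 was nearest to CEP78 (0.0477), KIF18A (0.0503) and SCAPER (0.0748), with a median of 0.794. JAK1 was nearest to IQCK (0.0302), F2RL3 (0.0437) and N4BP2L1 (0.0562), with a median of 0.62. JAK2 was nearest to C10orf88 (0.0902), STAM2 (0.125) and ANKRD50 (0.129), with a median of 0.805. With 3 lines, many genes share an order, and these names describe the shape of the profile only.

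The wider pathway was read from lists of ligands, receptors, kinases, regulators, adaptors and targets. Of 107 listed genes outside the 8, the annotation named 67, and 45 were tested. Of these, 38 differed among the lines, or 84.4%, close to the 82.4% of all tested genes, and their median width was 1.13 log2 units. By pairs, 13 were higher and 21 lower in U266 than in RPMI8226, 16 higher and 17 lower in U266 than in KMS11, and 13 higher and 17 lower in KMS11 than in RPMI8226. Over all tested genes the same splits were 2609 and 2408, 2218 and 2530, and 2653 and 2185. The counts of listed genes include STAT4 and SOCS1, whose differences are given below as a description only.

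Ligands and receptors related to IL6 were mostly low. Of 7 named ligands of the family, 2 were tested, IL11 and IL27, and neither was called among the lines. EBI3, a ligand subunit whose mean of 4.10 was below the filter, stood at 5.08 and 5.23 in RPMI8226. On the other 4 arrays EBI3 stood between 3.37 and 3.82, and its difference is given as a description with no test. IL11 stood between 4.60 and 4.94 on the 6 arrays. The 4 named receptors, LIFR, OSMR, CNTFR and IL31RA, were all below the filter. Both named sheddases that can release the IL6 receptor from the cell surface were tested and called. ADAM17 stood at 8.68 and 8.72 in RPMI8226 against 7.83 to 7.98 on the other 4 arrays, and ADAM10 between 8.66 and 9.38.

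Among the other kinases and STAT factors, 4 of 4 tested genes differed among the lines, where 82.4% of all tested genes did. STAT4, a factor best known downstream of interleukin-12 and type I interferon, stood at 8.03 and 7.79 in U266, 4.94 and 4.58 in KMS11, and 3.68 and 3.29 in RPMI8226. STAT4 passed the filter only through its level in U266, so its difference is given as a description with no test. JAK3, a kinase of the common gamma chain receptors, had the same order, with 7.17 and 7.05 in U266, 6.45 and 6.33 in KMS11, and 5.49 and 5.69 in RPMI8226. TYK2, the remaining kinase, ranged only from 6.34 to 6.92. STAT5B ranged from 5.63 in U266 to 6.41 in KMS11.

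Inhibitors of the pathway did not share one direction. Of 19 genes of the SOCS, PIAS and phosphatase list 8 were named, none of them a PIAS gene or a phosphatase. Of the 6 tested, 5 differed among the lines, or 83.3% beside 82.4% of all tested genes. In U266, 1 was higher and 4 were lower than in RPMI8226. SOCS1, of the same family as SOCS3, had the opposite order, at 5.55 and 5.25 in RPMI8226, 4.90 and 4.80 in KMS11, and 3.78 and 3.95 in U266. SOCS1 passed the filter only through its level in RPMI8226, so its differences are given as a description with no test. The counts of this list include it. SOCS6 was highest in KMS11, at 6.51 and 6.65, and lowest in U266, at 3.93 and 4.47. USP18, a brake on the type I interferon receptor, was the one that was higher in U266, at 8.81 and 8.09 against 4.95 and 5.38 in RPMI8226. In the list of RAS and PI3K adaptors, 4 of 7 tested genes differed, or 57.1% beside 82.4% of all tested genes, and the line means of GRB2, an adaptor, lay within 0.18 log2 units and were not called.

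Of 21 tested genes known as STAT3 targets, 20 differed among the lines, or 95.2% beside 82.4% of all tested genes. In U266, 7 were higher and 13 lower than in RPMI8226, where all tested genes split into 2609 and 2408. Against KMS11, 7 were higher and 9 lower in U266, beside 2218 and 2530 of all tested genes. In KMS11, 4 were higher and 11 lower than in RPMI8226, beside 2653 and 2185 of all tested genes. SOCS1 and IL21R are also on other lists, and the counts include SOCS1, whose differences are given above as a description only. MYC and CCND1 are also on a list of line-defining translocation genes, and the part of such rearrangements in their levels was not tested. MYC was widest, at 10.83 and 10.75 in RPMI8226, 9.14 and 9.25 in KMS11, and 4.92 and 4.43 in U266. In CCND1, the cyclin D1 gene, the U266 arrays stood highest, at 9.98 and 10.00. TIMP1, a protease inhibitor, stood at 8.01 and 8.06 in RPMI8226 against 3.92 and 4.38 in KMS11, and ICAM1, an adhesion receptor, stood at 10.22 on both RPMI8226 arrays and 7.84 on both KMS11 arrays.

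The other PIM kinases had their lowest levels in U266, where PIM2 was intermediate. PIM1 stood at 8.44 and 8.42 in RPMI8226, 8.37 and 8.39 in KMS11, and 7.15 and 7.12 in U266, and PIM3 lay between 6.46 and 7.36. The survival genes of the list differed in order. MCL1 stood at 9.13 on both RPMI8226 arrays and between 9.69 and 9.75 on the other 4, so that RPMI8226 was lowest. BCL2L1, encoding BCL-XL, was highest in U266, at 9.28 and 9.48, and lowest in KMS11, at 7.70 and 7.61.

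**Figure D3:**
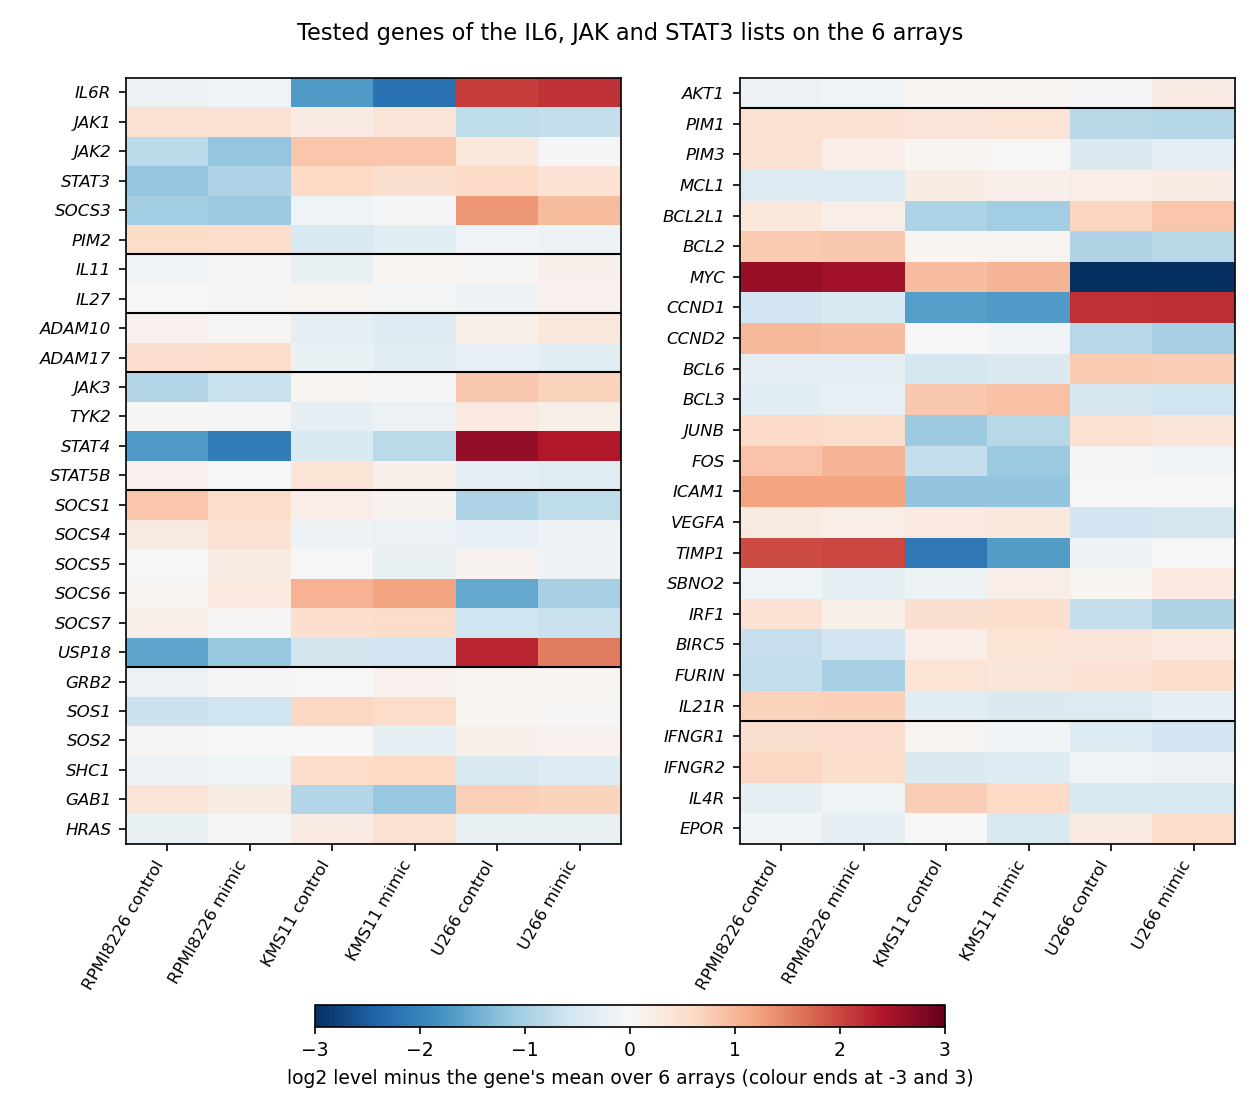
Heat map of the 51 tested genes of the pathway lists (rows, with black lines between lists and the 6 named genes at the top) on the 6 arrays (columns), coloured by log2 level minus the gene's own mean. Colours differ more between lines than within them, as for STAT4, red on both U266 arrays and blue on both RPMI8226 arrays, and MYC, with the opposite pattern.

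The mimic was next set against the scrambled control, to ask whether miR-10a in excess alters the pathway. None of the 6 genes was called (limma with the line as a block, adjusted p from 0.902 for JAK2 to 0.993 for STAT3). Over all 7442 genes 0 were called, or 0%, with 403 at an unadjusted p under 0.05 in limma. By sign, 2 of the 6 genes were higher and 4 lower with mimic, with a median log2 change of -0.06, against a median of -0.0029 over all tested genes. No gene of the 6 moved the same way in all 3 lines, while 26.5% of tested genes did.

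JAK2 gave a mean change of -0.24 ± 0.22 (log2 change, SD of 3 lines), which ran from -0.36 without KMS11 to -0.17 without RPMI8226. The change was -0.38 in RPMI8226, -0.35 in U266 and 0.01 in KMS11. Its 95% interval, not corrected for the number of genes, ran from -0.48 to -0.00055. SOCS3 gave -0.12 ± 0.24, from -0.38 in U266 and -0.07 in RPMI8226 to 0.10 in KMS11, and was 0.014 without U266. The weaker SOCS3 probe set disagreed in part, with a mean of -0.31 ± 0.10 from changes of -0.40, -0.33 and -0.21 in RPMI8226, KMS11 and U266.

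IL6R gave -0.13 ± 0.36, of which KMS11 alone gave -0.55, against 0.07 in RPMI8226 and 0.08 in U266, and its mean was 0.076 without KMS11. In KMS11, 1.16% of tested genes changed at least as much as IL6R between the 2 arrays. STAT3 gave -0.01 ± 0.22, from 0.25 in RPMI8226 to -0.12 in KMS11 and -0.15 in U266. Without KMS11 it was 0.048, without U266 0.063 and without RPMI8226 -0.13.

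The changes of JAK1 and PIM2 had the smallest SD over the 3 lines. JAK1 gave 0.06 ± 0.08 with a 95% interval from -0.11 to 0.23 and was 0.013 without KMS11, and PIM2 gave 0.02 ± 0.10 with an interval from -0.15 to 0.20 and was -0.033 without KMS11. The interval of SOCS3 reached -0.37 and that of STAT3 -0.25, and the lowest bounds were those of JAK2, at -0.48, and IL6R, at -0.47.

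**Figure D4:**
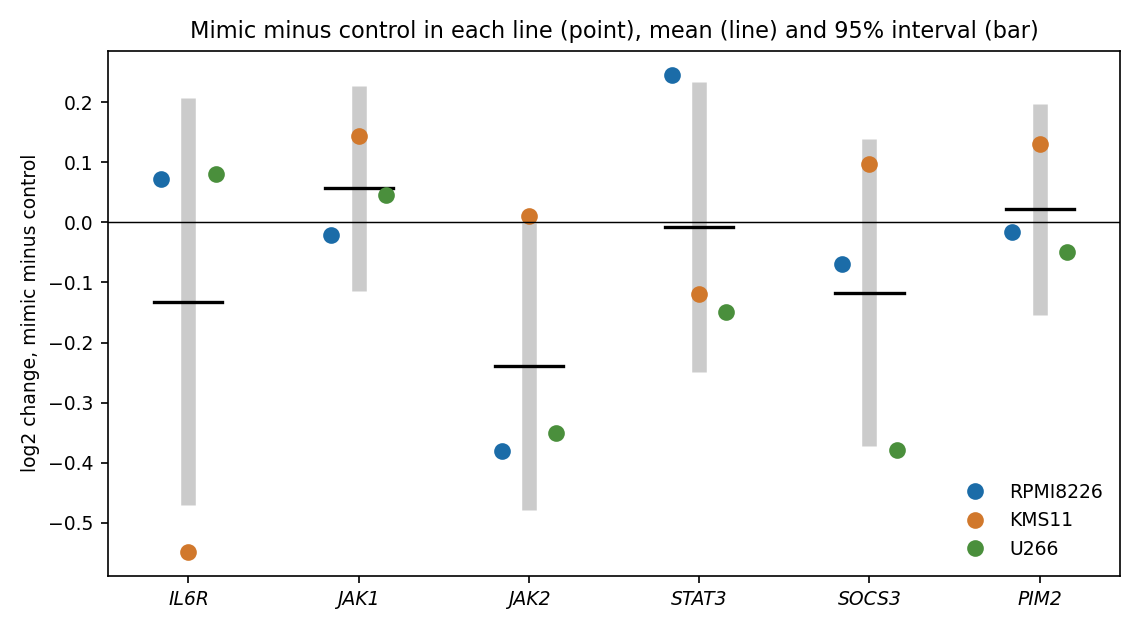
Log2 change, mimic minus control (vertical axis), of the 6 genes, with 1 coloured point for each line, a black line at the mean of the 3 lines and a grey bar for limma's 95% interval, not corrected for the number of genes. The points of every gene lie on both sides of 0, and the lowest is IL6R in KMS11, at -0.55.

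Whether a line's mimic effect differed from that of the other two lines was tested with an interaction term, a fit with 1 residual degree of freedom. No member was called for any line, and over all genes 0 were called (0%) for RPMI8226, KMS11 and U266, with 480, 298 and 471 at an unadjusted p under 0.05 in limma. IL6R in KMS11 gave the widest difference, -0.62, with limma's adjusted p = 1.0, but 0.00419 when the variance was modelled with an intensity trend, a setting that called 15 genes for KMS11. SOCS3 in U266 gave -0.39 (adjusted p = 0.806) and STAT3 in RPMI8226 gave 0.38 (adjusted p = 0.757). In the remaining settings, adjusted p-values of these terms stayed above the threshold of 0.05 for all 6 genes wherever they were tested.

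The other pathway genes behaved likewise with mimic. Of 45 tested, 0 were called, 20 were higher and 25 lower, and the median change was -0.0088. In all, 13 of the 45 moved the same way in all 3 lines, or 28.9%, beside 26.5% of all tested genes. Among these, STAT4 gave -0.33 ± 0.08, from -0.24 in U266, where its level was high, to -0.35 in KMS11 and -0.39 in RPMI8226 (limma, adjusted p = 0.889). In RPMI8226 the levels of STAT4 were low, at 3.68 and 3.29. SOCS6 gave 0.30 ± 0.21, from 0.14 in KMS11 and 0.23 in RPMI8226 to 0.54 in U266, where its levels were low, at 3.93 and 4.47.

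TIMP1 gave 0.23 ± 0.21, IL11 0.17 ± 0.06, STAT5B -0.16 ± 0.10, GAB1, an adaptor, -0.16 ± 0.10, AKT1 0.11 ± 0.17 and CCND2 -0.08 ± 0.06. None of these passed the test (adjusted p of 0.889 or more). The change of TIMP1 was widest in KMS11, at 0.46, where its levels were low, at 3.92 and 4.38. PIM1 gave -0.01 ± 0.03, and MCL1 gave -0.01 ± 0.05.

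The promoters of the 8 genes were searched for the binding motif shared by STAT factors. RefSeq windows of 300 bases (GRCh38.p14, 250 before to 50 after a start) were found for 8 of 8 genes, 14 windows in all. TTCNNNGAA, which reads the same on both strands, was in 0 of the 14 and in 7.66% of 35116 windows of that length, and the stricter form TTCCNGGAA, contained in it, in 0 and in 1.15%. These letters are not in these windows, and nothing follows for sites elsewhere.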

How the data were processed

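Per the labels, total RNA of 6 samples was hybridised to Affymetrix Human Gene 2.0 ST arrays, and the authors deposited 1 table of log2 values for 53617 probe sets. The submitters' processing notes name Affymetrix Expression Console 1.3.0. The method of background correction, normalization, summarization or centring between arrays, or a build, is not given in the sources used here. Array medians ran from 3.61 to 3.66, and no 2 arrays were identical (0 of 15 pairs). The number of arrays limits the precision.

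The platform annotation gave 1 symbol for 16098 probe sets, several for 0 and none for 37519, and 16098 identifiers matched RefSeq (GRCh38.p14). A gene with several probe sets (779 genes) was read from the one of highest mean. Genes at or above the median of named genes were tested with limma 3.58.1 under R 4.3.3 (lmFit, eBayes, two-sided, Benjamini-Hochberg over 7442 genes, threshold 0.05), with line and treatment as terms (2 residual and 3.82 prior degrees of freedom). The line pairs the arrays: deviations of its 2 arrays from the treatment means correlated at 0.967 to 0.97. The fits were checked on simulated data.

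Members and gene lists were chosen with earlier results of these data known. Named beyond the members were list genes called among lines with a width of at least 2 log2 units, per list the 2 widest mimic changes of one sign in all lines, and the 3 nearest profiles. Further list members were named after their values were seen (among them EBI3, the sheddases, JAK3, TYK2, SOCS1, GRB2, PIM1, PIM3, MCL1 and BCL2L1). The alternatives concerned the filter, scaling, variance trend, probe sets, block, treatment term and left-out arrays.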

Additional observations from a re-analysis of the deposited data

How the results depend on the processing

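The 18 pairwise differences between lines kept their direction and call in 220 of 231 recomputed values. The exceptions were the PIM2 step from KMS11 to U266, given with the levels, and the STAT3 difference between U266 and KMS11, which ran from -0.16 to 0.056 without a single array. Mimic changes kept their sign in 54 of 59 values and were never called. Both totals include values of the weaker SOCS3 probe set, which is not known to stand above background. The total for lines also includes JAK2, whose differences between lines are given as a description only. Without a line, the change of IL6R ran from -0.24 to 0.076, that of JAK1 from 0.013 to 0.095, that of JAK2 from -0.36 to -0.17, that of STAT3 from -0.13 to 0.063, that of SOCS3 from -0.22 to 0.014 and that of PIM2 from -0.033 to 0.057. Without the line as a replicate block, 0 genes were called with mimic. In the test of a line's own mimic effect, the JAK1 term of U266 became 0.020 after quantile normalization, and the SOCS3 term of RPMI8226 became -0.030 with probe sets averaged. With only the upper 25% of the 14884 named genes tested, fewer genes could be called. The counts were 3474 among lines, 2899 for U266 against RPMI8226, 2852 for U266 against KMS11 and 2933 for KMS11 against RPMI8226. As a share of the genes tested, each was higher than under the filter at the median (82.4%, 67.4%, 63.8% and 65%). The upper 25% setting also called 10 genes for the U266 mimic term. The intensity trend called 28 for U266 and 15 for KMS11, and the cause of these calls was not tested. The test of a line's own effect could not be fitted with an array left out, and JAK2 and SOCS3 were not tested in the upper 25%. The weaker SOCS3 probe set was added after seeing the data. The table gives no detection calls, so how far JAK2 stands above background is unknown.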
